A study of Mus musculus with 8 samples.

Results

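Chromosome duplication needs a fixed set of proteins, and 40 mouse genes that encode them or that supply deoxynucleotides were followed here across livers in which Dnajb9 or Rictor had been targeted by a short hairpin RNA. The genes were taken by symbol from a list of S-phase genes that covers origin licensing, helicase activation, polymerases, clamp loading, Okazaki fragment maturation, deoxynucleotide synthesis and chromatin assembly. All 40 of 40 symbols were found among the 24062 gene entries, and all 40 passed the filter on low counts that left 13767 genes to test. The rule used gene symbols only, but the list was chosen with earlier results of these data known.

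Liver RNA depleted of ribosomal RNA was sequenced from lean C57BL/6 wild-type mice, in 8 libraries with 2 in each of 4 groups. At 3 months of age the groups were lacZ1, a control adenovirus, and shDnajb9, an adenovirus that carries a hairpin against Dnajb9, the gene of an endoplasmic reticulum co-chaperone. At 4 months of age they were lacZ2, again a control adenovirus, and shRictor, with a hairpin against Rictor, a subunit that defines mTOR complex 2. Every mouse, controls included, had received 0.1 OD of adenovirus 1 week before it was killed and had been without food for 6 h, so no library came from a liver without virus. The labels do not state what the lacZ virus expressed, which promoter drove the hairpins, which liver cells were infected, or whether each library stands for an animal of its own. The p-values therefore cover the spread between these samples, which may be technical. With 2 libraries against 2, the smallest two-sided exact permutation p is 0.333, and all p-values given are from edgeR's quasi-likelihood test with Benjamini-Hochberg adjustment over the genes tested, with a gene called at an adjusted p under 0.05. Values per library are CPM, counts scaled to library size with edgeR's TMM factors, and are given with replicate 1 before replicate 2. A log2 fold change is given ± its standard error, first under shDnajb9 (minus lacZ1) and then under shRictor (minus lacZ2) where no group is named, and n is 2 libraries in every group.

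Before S phase, the origin recognition complex, Cdc6 and Cdt1 load rings of the Mcm proteins onto replication origins. The kinase Cdc7 with Dbf4 then acts with Cdc45, Mcm10 and the GINS complex to turn the rings into working helicases, and polymerases, the clamp Pcna and its loader copy both strands from deoxynucleotides that ribonucleotide reductase and thymidylate synthase supply. Most hepatocytes of an adult liver are out of the cell cycle, and the E2F factors are known to drive many of these genes when cells enter it.

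Promoter stretches are shown for 5 genes because E2F factors and the CCAAT-binding factor NF-Y are the best known regulators of this gene set. Each is the 200 bases before an annotated RefSeq start, on the gene's strand in the GRCm38.p6 assembly, and holds no annotated exon. Capitals mark the E2F-type words TTTGGCGC, TTTGGCGG, TTTCGCGC or TTTCCCGC and the word CCAAT, each searched on both strands, so that a word on the other strand is read as its reverse complement. Overlapping words form 1 run of capitals. Mcm5 (chr8:75109309-75109508, plus strand), Mcm6 (chr1:128359706-128359905, minus strand), Pola1 (chrX:93632156-93632355, minus strand) and Uhrf1 (chr17:56304113-56304312, plus strand) are 4 genes that fell under both hairpins and hold an E2F-type word. Mcm10 (chr2:5012792-5012991, minus strand) is the gene that rose, and its stretch holds CCAAT and no E2F-type word. These 5 were chosen after their values were seen.
Mcm5: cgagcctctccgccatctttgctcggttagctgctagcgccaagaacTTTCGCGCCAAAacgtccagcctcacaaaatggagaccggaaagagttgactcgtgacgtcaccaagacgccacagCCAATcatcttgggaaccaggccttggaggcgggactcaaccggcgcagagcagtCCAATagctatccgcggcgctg
Mcm6: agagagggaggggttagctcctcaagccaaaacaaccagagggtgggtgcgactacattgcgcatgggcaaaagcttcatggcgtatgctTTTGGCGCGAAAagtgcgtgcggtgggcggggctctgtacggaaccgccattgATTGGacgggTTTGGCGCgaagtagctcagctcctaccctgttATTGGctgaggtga
Pola1: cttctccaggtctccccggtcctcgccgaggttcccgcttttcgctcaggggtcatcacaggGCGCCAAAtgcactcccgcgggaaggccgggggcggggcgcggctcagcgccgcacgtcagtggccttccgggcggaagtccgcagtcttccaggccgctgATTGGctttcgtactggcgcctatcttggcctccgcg
Uhrf1: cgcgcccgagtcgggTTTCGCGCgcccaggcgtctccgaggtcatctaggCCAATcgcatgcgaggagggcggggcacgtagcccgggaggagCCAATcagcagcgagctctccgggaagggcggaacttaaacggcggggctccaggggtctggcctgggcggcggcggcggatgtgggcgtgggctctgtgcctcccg
Mcm10: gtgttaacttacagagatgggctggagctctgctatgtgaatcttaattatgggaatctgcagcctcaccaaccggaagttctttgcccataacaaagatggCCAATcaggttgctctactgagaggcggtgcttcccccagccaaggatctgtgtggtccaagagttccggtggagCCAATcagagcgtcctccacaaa

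Over the 250 bases before a start, the RefSeq table held 39 promoters of 33 of the 40 genes, not those of Mcm4, Gins1, Gins2, Gins4, Prim2, Pole and Rfc2. An E2F-type word was present in 10 of the 39 (25.6%), against 643 of 32851 promoters of all genes (1.96%). The word CCAAT was present in 21 of the 39 (53.8%), against 33.8% of all promoters, and TTTGAA, the core of the cell cycle homology region, in 5 of the 39 (12.8%), against 15.99%. The 10 genes with an E2F-type word were Orc1, Cdc6, Mcm5, Mcm6, Mcm7, Gins3, Pola1, Rfc3, Uhrf1 and Chaf1a, with a median log2 fold change of -1.96 under shDnajb9 and -1.79 under shRictor. The other 23, Mcm10 and Tk1 among them, had medians of -1.35 and -1.35. Of the 10 genes with the word, 9 fell under shDnajb9 and 10 under shRictor. Of the 23 without it, 15 fell under each hairpin. Falls among all tested genes came to 12.6% and 10.9%. Any link between the word and the changes was not tested. A word in a promoter is a description of its letters and not a binding site.

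Most of the replication genes were lower under both hairpins, and 1 of them, Mcm10, was higher. Under shDnajb9, 29 of 40 were called, against 24.2% of all tested genes: 28 fell, as did 12.6% of all tested genes, and 1 rose, as did 11.6%. Under shRictor, 30 of 40 were called, against 18.2% of all tested genes: 29 fell, against 10.9%, and 1 rose, against 7.31%. Under both hairpins 26 of 40 fell, where 6.85% of all tested genes did. The median log2 fold change of the 40 was -1.39 under shDnajb9 and -1.41 under shRictor, beside -0.05 and -0.02 over all genes tested. Both shDnajb9 libraries lay below both lacZ1 libraries in 33 of the 40 genes, which held for 35.1% of all tested genes, and the same order was found between shRictor and lacZ2 in 35, against 31.6%. In neither contrast were Orc6, Gins1, Gins4, Cdc7, Rfc1, Rfc2, Rfc5 and Tk1 called.

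**Figure D1:**
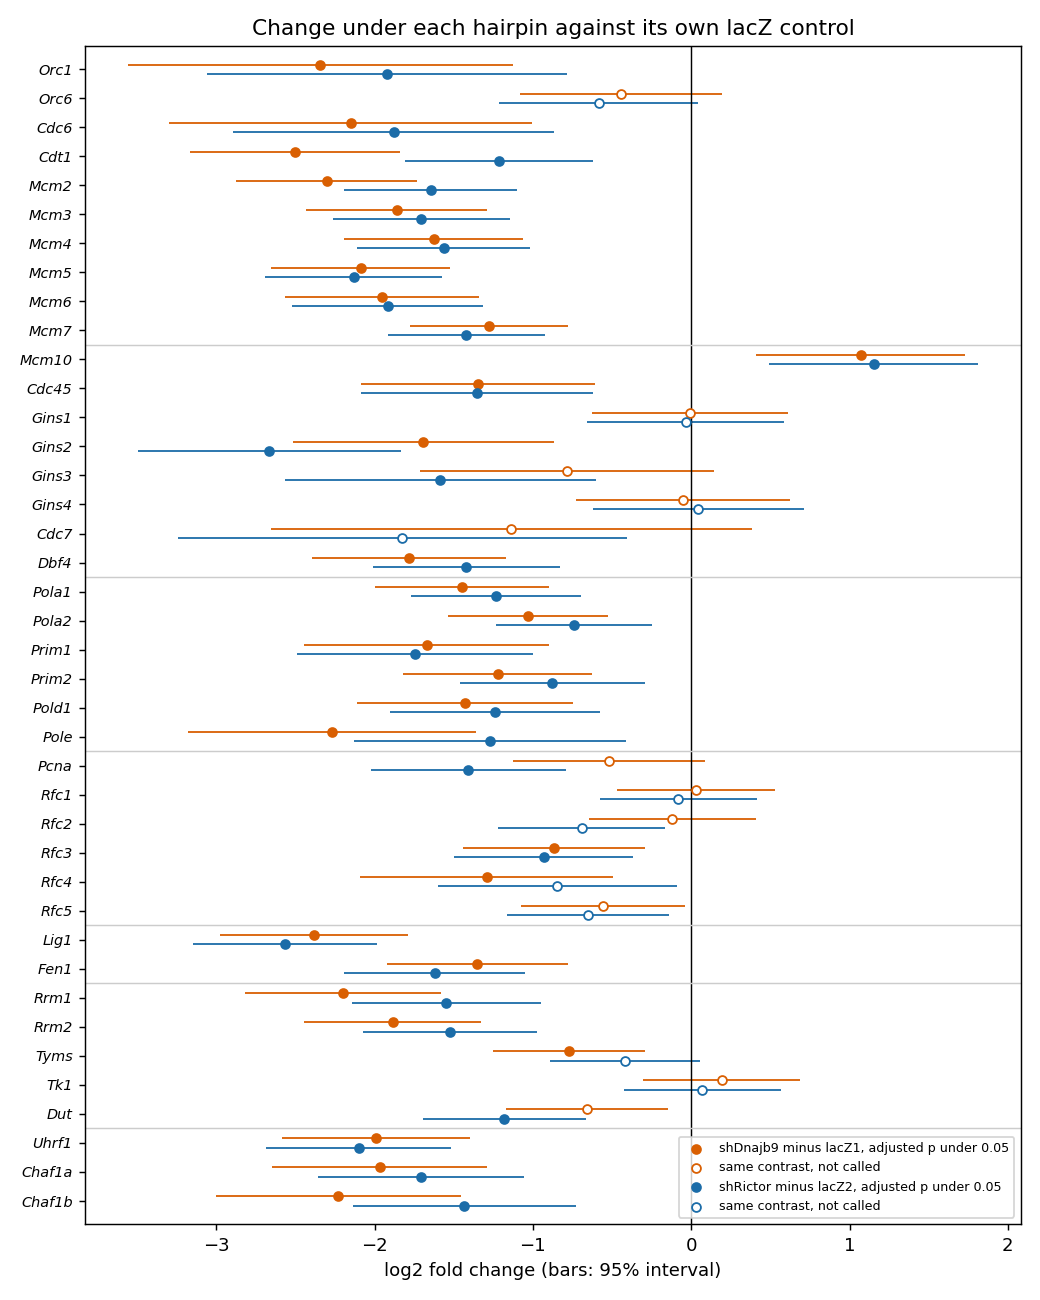
Log2 fold change (horizontal axis) of each of the 40 genes under shDnajb9 minus lacZ1 (orange) and shRictor minus lacZ2 (blue), with 95% intervals as bars, filled points for an adjusted p under 0.05 and grey lines between roles. Filled points lie left of 0 for 28 and 29 genes, and to the right for Mcm10 alone.

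Summed over the 40 genes, the level was 1356 and 1559.6 CPM (lacZ1), 798 and 678 (shDnajb9), 1244 and 1491 (lacZ2), and 659 and 672 (shRictor). All 4 hairpin libraries lay below all 4 controls. Without Mcm10 the sums were 1306 and 1498 CPM (lacZ1), 649.8 and 592 (shDnajb9), 1205 and 1430.4 (lacZ2), and 541 and 569.7 (shRictor). These are bulk livers, in which fewer dividing cells and less of these RNAs in each cell cannot be told apart. The scaling matters for single genes: with total counts alone, the median over all tested genes was -0.46 under shDnajb9 and -0.42 under shRictor, and the calls over all genes changed from 1597 rises and 1728 falls to 610 and 3354 under shDnajb9 and from 1006 and 1502 to 436 and 2810 under shRictor. The replication genes then gave 32 falls under shDnajb9 and 34 under shRictor with no rise, and their medians of -1.81 and -1.82 stayed far below those of all genes.

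**Figure D2:**
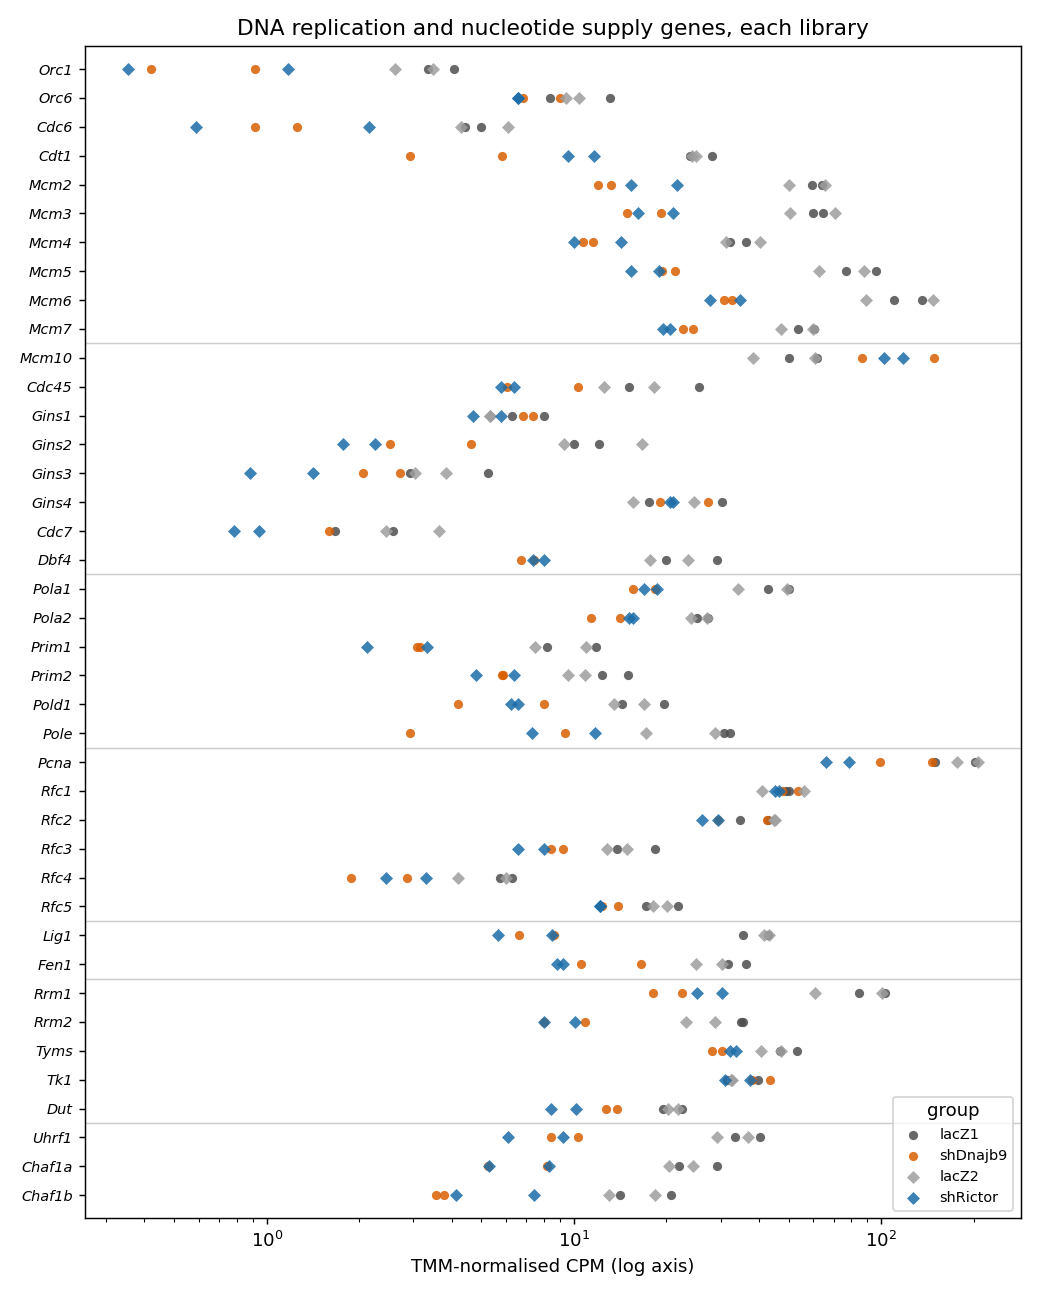
TMM-normalised CPM (horizontal log axis) of each of the 40 genes in each of the 8 libraries, with grey circles for lacZ1, orange circles for shDnajb9, grey diamonds for lacZ2 and blue diamonds for shRictor. Coloured points lie left of the grey points in most rows and to the right in Mcm10, and Cdc7 in shDnajb9 replicate 1, at 0, cannot be drawn on the log axis.

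Gene counts came to between 6426164 and 11383532 per library, of which the 40 genes held 3808 to 17620. The libraries shDnajb9 replicate 1 and lacZ2 replicate 1 had the lowest and the highest TMM factor, 0.743 and 1.28, and without both 23 genes were called under shDnajb9 and 26 under shRictor. Dnajb9 itself measured 30.6 and 38.04 CPM (lacZ1), 22.01 and 20.3 (shDnajb9), 40.4 and 38.8 (lacZ2), and 61.1 and 43.8 (shRictor), and changed by -0.70 ± 0.247 (adjusted p = 0.0560) in its own contrast. Rictor measured 65.4 and 68.8 CPM (lacZ1), 33.3 and 63.4 (shDnajb9), 52.3 and 65.2 (lacZ2), and 40.1 and 41.97 (shRictor), a change of -0.52 ± 0.281 (adjusted p = 0.231) in its own contrast and -0.46 ± 0.281 (adjusted p = 0.239) under shDnajb9. Both targets were lower in both libraries of their hairpin, and neither was called. The proliferation markers Mki67, Top2a, Ccna2, Ccnb1, Ccnb2, Cdk1, Aurkb, Bub1, Birc5 and Plk1 fell under both hairpins in 10 of 10 cases, with medians of -2.70 and -2.52. Over all tested genes, 12.6% and 10.9% fell. All 10 markers were also lower in lacZ2 than in lacZ1, with a median of -0.41. None was called there, 3 had an unadjusted edgeR p under 0.05, and 8 lay below without overlap. The control libraries overlapped in 78.3% of all tested genes. Reads that aligned to more than 1 place made up 22.9% to 24.9% of all reads tallied by HTSeq in the controls, 41.3% and 41.97% in shDnajb9, and 32.7% and 26.7% in shRictor. These tallies held no unaligned reads.

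Markers of liver cell types are given beside these results, and their part in the results on replication genes was not tested. Their counts stand against the shares of all tested genes given above, 12.6% fallen and 11.6% risen under shDnajb9 and 10.9% and 7.31% under shRictor, and lists of so few genes give imprecise shares. Hepatocyte markers, Alb among them, rose in 5 of 10 cases under shDnajb9 and 4 of 10 under shRictor, with sums between 27120 and 63225 CPM in the controls and between 72631 and 88185 in the hairpin libraries. Kupffer cell and macrophage markers fell in 2 and 3 of the 8 tested, with sums of 1271 to 1532 CPM in the controls, 1071 and 1251 in shDnajb9, and 751 and 899.8 in shRictor. Of 8 neutrophil markers, 5 were tested, and 4 of these fell under shDnajb9 and 1 under shRictor. Of all 8, tested or not, 7 lay below and 1 above lacZ1 under shDnajb9, and 2 lay below and 6 overlapped with lacZ2 under shRictor. Among all tested genes, 35.1% lay below lacZ1 under shDnajb9 and 31.6% below lacZ2 under shRictor. Neutrophil markers summed to 25.7, 6.32, 14.4 and 4.06 CPM in the controls, 1.05 and 1.03 in shDnajb9, and 1.77 and 4.79 in shRictor. S100a8, Mpo and Retnlg were at 0 in both shDnajb9 libraries, and Retnlg was at 0 in both shRictor libraries. Kupffer cell sums were lower in every hairpin library than in any control, and the neutrophil sums of shRictor overlapped with lacZ2. Hepatocyte sums were higher in every hairpin library on the TMM scale, but as a share of all gene counts lacZ1 replicate 2, at 6.77%, lay above shDnajb9 replicate 1 and shRictor replicate 1, at 6.55% and 6.67%. Of 9 T and NK cell markers, 1 and 2 fell, near the shares of all tested genes, and they summed to 36.6 to 64.998 CPM in the controls and 25.99 to 35.6 in the hairpin libraries. Of 7 markers of stellate cells and fibroblasts, 4 and 2 fell, with sums of 541 to 648 CPM in the controls and 312 to 425 in the hairpin libraries. Of the 4 cholangiocyte markers tested, 2 fell under shDnajb9 and 0 were called under shRictor by edgeR, where 1 had an unadjusted p under 0.05, and their sums were 59.3 to 111 CPM in the controls and 28.3 to 58.8 in the hairpin libraries. For the sums of these 3 lists every hairpin library lay below every control. Endothelial markers, with 1 of 6 risen under shDnajb9, summed to 377 to 465 CPM in the controls and 407 to 512 in the hairpin libraries, which overlap. As a share of all gene counts they made up 0.0482% to 0.0522% in the controls and less, 0.0315% to 0.0467%, in every hairpin library. B and plasma cell markers summed to 5.85 to 8.59 CPM in the controls and 6.59 to 8.38 in the hairpin libraries. Of the 6 erythroid markers, with the globin genes at 0 in all 8 libraries, 3 were tested, and 1 rose and 1 fell in each contrast. The changes were negative for 2 of the 3 in each contrast, with medians of -1.26 and -1.89. The 1 positive change was 3.25 under shDnajb9 and 1.62 under shRictor. The sums were 56.5 to 72.3 CPM in the controls and 130.01 to 594 in the hairpin libraries.

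Origin licensing fell under both hairpins. Of its 10 genes, 9 fell under shDnajb9 and 9 under shRictor, with medians of -2.02 and -1.67. The falls in this role and in those below stand beside 12.6% of all tested genes under shDnajb9 and 10.9% under shRictor. Cdt1, which brings the Mcm rings to origins, measured 28.2 and 23.8 CPM (lacZ1), 2.93 and 5.82 (shDnajb9), 25.01 and 24.3 (lacZ2), and 11.7 and 9.59 (shRictor). Both hairpin groups lay well below their controls. The shDnajb9 libraries lay below those of shRictor as well, from mice of another age. The difference between the 2 changes was not called (edgeR adjusted p = 0.407). The log2 fold change of Cdt1 was -2.50 ± 0.307 (adjusted p = 0.000198) under shDnajb9 and -1.22 ± 0.275 (adjusted p = 0.00887) under shRictor. Orc1, the ATPase subunit of the origin recognition complex that comes and goes with the cell cycle, measured 4.08 and 3.34 CPM (lacZ1), 0.419 and 0.913 (shDnajb9), 3.49 and 2.62 (lacZ2), and 0.353 and 1.17 (shRictor). No hairpin library reached the lowest control, and its counts were small, with 2 and 8 in shDnajb9 and 3 and 12 in shRictor. Orc1 changed by -2.34 ± 0.563 (adjusted p = 0.0109) and by -1.92 ± 0.526 (adjusted p = 0.0233). Cdc6, the ATPase that helps to load the rings, measured 4.96 and 4.41 CPM (lacZ1), 1.26 and 0.913 (shDnajb9), 4.30 and 6.09 (lacZ2), and 0.589 and 2.15 (shRictor). It too was lower in every hairpin library than in any control, with changes of -2.15 ± 0.531 (adjusted p = 0.0127) and -1.88 ± 0.468 (adjusted p = 0.0150). Orc6, the smallest subunit of the origin recognition complex, measured 8.33 and 13.1 CPM (lacZ1), 9.01 and 6.85 (shDnajb9), 10.4 and 9.39 (lacZ2), and 6.59 and 6.55 (shRictor). Its lacZ1 and shDnajb9 libraries overlapped while its shRictor libraries lay below lacZ2, and the changes of -0.45 ± 0.296 (adjusted p = 0.280) and -0.58 ± 0.291 (adjusted p = 0.190) were not called. The call of Orc1 was lost without lacZ1 replicate 1 and without shDnajb9 replicate 1 (adjusted p = 0.076 and 0.069) and, under shRictor, without lacZ2 replicate 1 and without shRictor replicate 1 (0.118 and 0.166). That of Cdc6 was lost without lacZ1 replicate 1 and without shDnajb9 replicate 2 (0.0707 and 0.0647) and without lacZ2 replicate 2 and without shRictor replicate 1 (0.0904 and 0.117), and that of Cdt1 under shRictor without lacZ2 replicate 1 and without shRictor replicate 2 (0.0578 and 0.0851).

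The helicase subunits Mcm2 to Mcm7, which are loaded as 1 ring, fell together under both hairpins. Mcm6 had the highest level of the ring genes in every control, at 110.1 and 135 CPM (lacZ1), 32.7 and 30.7 (shDnajb9), 89.1 and 147 (lacZ2), and 27.7 and 34.8 (shRictor). Its hairpin libraries reached at most 34.8 CPM and its controls at least 89.1 CPM, a change of -1.95 ± 0.283 (adjusted p = 0.000570) under shDnajb9 and -1.92 ± 0.280 (adjusted p = 0.000643) under shRictor. Mcm2 measured 64.4 and 59.5 CPM (lacZ1), 13.2 and 11.99 (shDnajb9), 50.2 and 65.8 (lacZ2), and 15.3 and 21.7 (shRictor). Its groups were as far apart, with changes of -2.30 ± 0.265 (adjusted p = 0.000138) and -1.65 ± 0.252 (adjusted p = 0.000864). Mcm5, with an E2F-type word in its promoter stretch, measured 76.8 and 96.4 CPM (lacZ1), 21.4 and 19.4 (shDnajb9), 62.6 and 87.9 (lacZ2), and 15.3 and 18.98 (shRictor), and changed by -2.09 ± 0.261 (adjusted p = 0.000224) and -2.13 ± 0.260 (adjusted p = 0.000235). For Mcm3 the log2 fold changes were -1.86 ± 0.265 (adjusted p = 0.000504) and -1.70 ± 0.260 (adjusted p = 0.000838), and for Mcm4 -1.63 ± 0.261 (adjusted p = 0.00112) and -1.56 ± 0.254 (adjusted p = 0.00120). Mcm7 had the smallest change of the 6, by -1.28 ± 0.231 (adjusted p = 0.00236) and -1.42 ± 0.230 (adjusted p = 0.00120). Of the 50-base stretches of its exons, 23.3% also occur in other genes, the largest number in Gm5487, so that its counts are uncertain. Reads with several alignments were kept out of the counts. These 6 genes were called under each of the 19 alternatives tried, in both contrasts. Per kilobase of exon, Mcm4 was the lowest of the 6 in all 8 libraries, and the ratio of the highest to the lowest ran from 2.34 to 3.05 in the controls and from 2.01 to 2.75 in the hairpin libraries. Mcm6 was the highest of the 6 in the 4 controls and in shRictor replicate 2, and Mcm7 was the highest in the other 3 libraries.

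**Figure D3:**
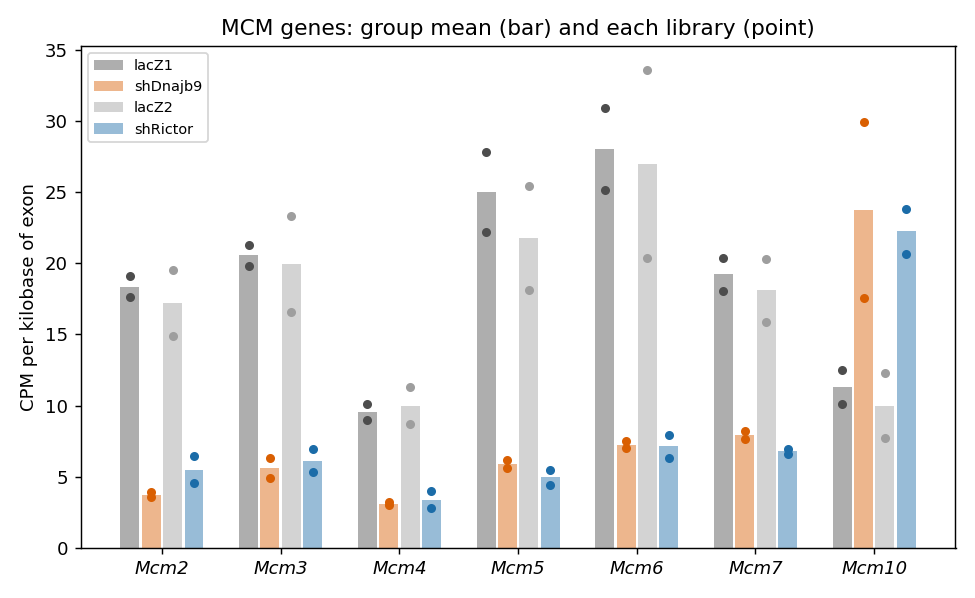
CPM per kilobase of exon (vertical axis from 0) of Mcm2 to Mcm7 and Mcm10, as bars for the group mean and points for the 2 libraries of a group. Every point of Mcm2 to Mcm7 in the hairpin groups lies below every control point of the same gene, and the points of Mcm10 lie in the reverse order.

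Mcm10 went the other way. It encodes a factor that binds the loaded helicase and polymerase alpha when origins fire, is not part of the ring despite its name, and lies at chr2:4989714-5012791 on the minus strand in GENCODE release M21. It measured 49.9 and 61.9 CPM (lacZ1), 148 and 86.9 (shDnajb9), 38.1 and 60.9 (lacZ2), and 118 and 102 (shRictor). All 4 hairpin libraries lay above all 4 controls, from 86.9 to 148 CPM against 38.1 to 61.9. The log2 fold change was 1.07 ± 0.306 (adjusted p = 0.0242) under shDnajb9, or 2.10-fold, and 1.15 ± 0.306 (adjusted p = 0.0201) under shRictor, or 2.22-fold. Neither a shared 50-base stretch nor an annotated exon of another gene touched its exons. Its direction held with total counts alone, at 0.61 and 0.77, though it was then called in neither contrast (adjusted p = 0.0949 and 0.054). Under shDnajb9 it was no longer called without lacZ1 replicate 1 (0.89, adjusted p = 0.204), without lacZ1 replicate 2 (1.22, 0.0579) and without shDnajb9 replicate 1 (0.64, 0.206), and under shRictor without lacZ2 replicate 1 (0.85, 0.175) and without shRictor replicate 1 (1.05, 0.1). Without the 2 libraries at the extremes of the TMM factor the changes were 0.64 and 0.86 (adjusted p = 0.136 and 0.06).

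Among the other genes of origin firing the response was uneven. Of the 8 genes of this role, Mcm10 included, 3 fell and 1 rose under shDnajb9 and 4 fell and 1 rose under shRictor, with medians of -0.96 and -1.39. Over all tested genes, 12.6% fell and 11.6% rose under shDnajb9, and 10.9% fell and 7.31% rose under shRictor. Dbf4, the subunit that activates the kinase Cdc7, measured 19.9 and 29.2 CPM (lacZ1), 6.71 and 7.42 (shDnajb9), 23.5 and 17.7 (lacZ2), and 8.01 and 7.34 (shRictor). Every hairpin library lay below every control, and the gene changed by -1.78 ± 0.284 (adjusted p = 0.00106) and -1.42 ± 0.274 (adjusted p = 0.00360). Cdc7, the kinase itself, was scarcely expressed, at 2.57 and 1.67 CPM (lacZ1), 0 and 1.60 (shDnajb9), 2.44 and 3.64 (lacZ2), and 0.942 and 0.783 (shRictor). The 0 stands for no count in shDnajb9 replicate 1, which allows up to 3 counts. The groups of Cdc7 did not overlap within either experiment, but lacZ1 replicate 2 and shDnajb9 replicate 2 held 14 counts each and differed only by the scaling. The changes of -1.14 ± 0.702 (adjusted p = 0.247) and -1.83 ± 0.655 (adjusted p = 0.0727) were not called. Cdc45, which travels with the helicase, changed by -1.35 ± 0.342 (adjusted p = 0.0144) and -1.35 ± 0.339 (adjusted p = 0.0153). It was not called without lacZ1 replicate 2 or shDnajb9 replicate 2 (adjusted p = 0.106 and 0.0792), nor, under shRictor, without lacZ2 replicate 2, shRictor replicate 1 or shRictor replicate 2 (0.114, 0.0682 and 0.0954).

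The 4 GINS genes, whose products form 1 complex, did not move as a unit. Gins2 measured 10.02 and 12.04 CPM (lacZ1), 4.61 and 2.51 (shDnajb9), 16.6 and 9.31 (lacZ2), and 1.77 and 2.25 (shRictor). It was lower in all hairpin libraries, with changes of -1.69 ± 0.382 (adjusted p = 0.00796) and -2.66 ± 0.385 (adjusted p = 0.000617). However, 65.4% of its 50-base stretches also occur in other genes, the largest number in Gse1, a gene on the opposite strand. The strand setting of the counts is not given in the sources used here. Gins3 measured 2.93 and 5.25 CPM (lacZ1), 2.73 and 2.06 (shDnajb9), 3.84 and 3.05 (lacZ2), and 1.41 and 0.880 (shRictor). Its changes were -0.78 ± 0.431 (adjusted p = 0.193), not called, and -1.58 ± 0.455 (adjusted p = 0.0292), called. Gins1 measured 6.29 and 7.99 CPM (lacZ1), 7.34 and 6.85 (shDnajb9), 5.35 and 5.33 (lacZ2), and 5.77 and 4.70 (shRictor). Hairpin and control libraries overlapped in both experiments, and the changes were -0.01 ± 0.286 (adjusted p = 0.987) and -0.03 ± 0.288 (adjusted p = 0.950). Gins4 measured 17.6 and 30.3 CPM (lacZ1), 27.3 and 19.1 (shDnajb9), 15.6 and 24.5 (lacZ2), and 21.1 and 20.5 (shRictor). It overlapped in both experiments too, with changes of -0.05 ± 0.312 (adjusted p = 0.917) and 0.05 ± 0.309 (adjusted p = 0.937), the second of which was -0.34 with total counts alone. The 95% intervals of these changes ran from -0.63 to 0.61 and from -0.66 to 0.59 for Gins1 and from -0.73 to 0.62 and from -0.62 to 0.71 for Gins4. Under shDnajb9, Gins2 was not called without shDnajb9 replicate 2 (adjusted p = 0.052). The call was lost for Gins3 under shRictor without lacZ2 replicate 1, lacZ2 replicate 2, shRictor replicate 1 or shRictor replicate 2 (0.136, 0.0527, 0.0665 and 0.198).

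Polymerase and primase genes fell without exception, 6 of 6 in both contrasts, with medians of -1.44 and -1.24. Pole, the catalytic subunit of the leading strand polymerase epsilon, measured 32.1 and 30.9 CPM (lacZ1), 2.93 and 9.36 (shDnajb9), 17.2 and 28.9 (lacZ2), and 7.30 and 11.7 (shRictor). All hairpin libraries were below all controls, shDnajb9 replicate 1 furthest, and the changes were -2.27 ± 0.420 (adjusted p = 0.00294) and -1.27 ± 0.396 (adjusted p = 0.0422). Prim1, the catalytic primase subunit, measured 8.16 and 11.8 CPM (lacZ1), 3.14 and 3.08 (shDnajb9), 7.44 and 10.9 (lacZ2), and 2.12 and 3.33 (shRictor). Its hairpin libraries did not overlap with the controls, and it changed by -1.67 ± 0.358 (adjusted p = 0.00594) and -1.74 ± 0.346 (adjusted p = 0.00422). Pola1, the catalytic subunit of polymerase alpha, measured 42.7 and 50.2 CPM (lacZ1), 15.5 and 18.4 (shDnajb9), 34.2 and 49.3 (lacZ2), and 16.95 and 18.6 (shRictor), without overlap, and changed by -1.45 ± 0.254 (adjusted p = 0.00198) and -1.23 ± 0.249 (adjusted p = 0.00476). Pola2, the accessory subunit of polymerase alpha, changed by -1.03 ± 0.235 (adjusted p = 0.00826) and -0.74 ± 0.228 (adjusted p = 0.0394). Prim2, the large primase subunit, changed by -1.22 ± 0.277 (adjusted p = 0.00808) and -0.88 ± 0.270 (adjusted p = 0.0395). Pold1, the catalytic subunit of the lagging strand polymerase delta, changed by -1.43 ± 0.317 (adjusted p = 0.00719) and -1.24 ± 0.308 (adjusted p = 0.0149).

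Several of these calls depended on single libraries. Under shDnajb9, that of Pola2 was lost without lacZ1 replicate 1 or shDnajb9 replicate 1 (adjusted p = 0.0708 and 0.0544), that of Pold1 without the same libraries (0.0799 and 0.0515) and that of Prim2 without lacZ1 replicate 2 (0.0532). Under shRictor, Pola1 was not called without lacZ2 replicate 2 (0.0511), and Pold1 was not called without lacZ2 replicate 1, shRictor replicate 1 or shRictor replicate 2 (0.111, 0.088 and 0.0741). Without any 1 of the 4 libraries of the Rictor experiment, or any 1 of the lacZ1 libraries, whose spread enters the shared fit, Pole, Pola2 and Prim2 were not called under shRictor. The adjusted p was then between 0.0567 and 0.284 for Pole, between 0.0687 and 0.182 for Pola2 and between 0.0608 and 0.256 for Prim2. DESeq2 did not call Pola2 or Prim2 there either (0.0749 and 0.0869).

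The sliding clamp and its loader had the smallest median changes of the 7 roles. Of 6 genes, 2 fell under shDnajb9 and 2 under shRictor, with medians of -0.54 and -0.77. Falls among all tested genes came to 12.6% and 10.9%, and a list of 6 gives an imprecise share. Pcna, the clamp, had the highest CPM of the 40 genes in each control, at 149.99 and 202 CPM (lacZ1), 146 and 99.2 (shDnajb9), 206 and 177 (lacZ2), and 78.4 and 66.03 (shRictor). Its shRictor libraries lay far below lacZ2, while shDnajb9 replicate 1 lay next to the lower lacZ1 library. Pcna changed by -0.52 ± 0.281 (adjusted p = 0.185) under shDnajb9, not called, and by -1.41 ± 0.285 (adjusted p = 0.00476) under shRictor, a call that was lost without shRictor replicate 2 (adjusted p = 0.0579). Of the 50-base stretches of Pcna, 19.1% also occur in other genes, the largest number in a copy, Pcna-ps2. Rfc1, the large subunit of the clamp loader, measured 49.1 and 50.1 CPM (lacZ1), 47.6 and 53.5 (shDnajb9), 40.8 and 56.03 (lacZ2), and 46.5 and 45.2 (shRictor). Its groups overlapped in both experiments, and the changes of 0.03 ± 0.230 (adjusted p = 0.935) and -0.08 ± 0.229 (adjusted p = 0.849) were not called, the first being -0.39 with total counts alone. Rfc2, a small subunit, measured 34.7 and 42.7 CPM (lacZ1), 42.3 and 29.3 (shDnajb9), 45.01 and 44.6 (lacZ2), and 26.02 and 29.4 (shRictor). It overlapped under shDnajb9 and lay below its control under shRictor, with changes of -0.12 ± 0.245 (adjusted p = 0.749) and -0.69 ± 0.244 (adjusted p = 0.0673).

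The other small subunits of the loader were lower to different degrees. Rfc3 measured 13.8 and 18.4 CPM (lacZ1), 9.22 and 8.45 (shDnajb9), 12.8 and 14.9 (lacZ2), and 8.01 and 6.55 (shRictor), and fell under both hairpins, with -0.87 ± 0.265 (adjusted p = 0.0318) and -0.93 ± 0.262 (adjusted p = 0.0262). Rfc4 measured 6.29 and 5.72 CPM (lacZ1), 1.89 and 2.85 (shDnajb9), 4.19 and 6.01 (lacZ2), and 3.30 and 2.45 (shRictor). Its change was -1.29 ± 0.370 (adjusted p = 0.0246) under shDnajb9 and -0.85 ± 0.350 (adjusted p = 0.115), not called, under shRictor. Rfc5 measured 17.1 and 21.8 CPM (lacZ1), 12.4 and 13.9 (shDnajb9), 20.004 and 18.1 (lacZ2), and 12.1 and 12.1 (shRictor), without overlap in either experiment, and its changes of -0.56 ± 0.241 (adjusted p = 0.105) and -0.65 ± 0.237 (adjusted p = 0.0753) were not called. Rfc3 was not called under shDnajb9 without lacZ1 replicate 1, lacZ1 replicate 2, shDnajb9 replicate 1 or shDnajb9 replicate 2 (adjusted p between 0.0617 and 0.185), nor by DESeq2 (0.0581), nor under shRictor without lacZ2 replicate 1, lacZ2 replicate 2, shRictor replicate 1 or shRictor replicate 2 (between 0.0686 and 0.182). Rfc4 was not called without lacZ1 replicate 1, lacZ1 replicate 2 or shDnajb9 replicate 1 (0.141, 0.0625 and 0.14).

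Both genes of Okazaki fragment maturation fell. Lig1, the ligase that seals the fragments, measured 42.9 and 35.4 CPM (lacZ1), 8.59 and 6.62 (shDnajb9), 43.03 and 41.4 (lacZ2), and 5.65 and 8.51 (shRictor). Its hairpin libraries reached at most 8.59 CPM and its controls at least 35.4 CPM. Lig1 fell by 5.22-fold under shDnajb9 and 5.92-fold under shRictor, log2 changes of -2.38 ± 0.276 (adjusted p = 0.000141) and -2.57 ± 0.269 (adjusted p = 0.000119). Fen1, the nuclease that removes flaps ahead of the ligase, measured 31.7 and 36.3 CPM (lacZ1), 16.6 and 10.5 (shDnajb9), 24.9 and 30.4 (lacZ2), and 9.18 and 8.80 (shRictor). It was lower in every hairpin library, with changes of -1.35 ± 0.265 (adjusted p = 0.00371) and -1.62 ± 0.266 (adjusted p = 0.00129). However, 76.7% of its 50-base stretches also occur in other genes, the largest number in the antisense gene Gm10143. As the strand setting of the counts is not given, whether antisense reads were counted as its own is not known.

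Of the 5 genes of deoxynucleotide supply, 3 fell under shDnajb9 and 3 under shRictor, with medians of -0.77 and -1.18. Falls among all tested genes came to 12.6% and 10.9%. Rrm1, the large subunit of ribonucleotide reductase, measured 84.4 and 103 CPM (lacZ1), 18.03 and 22.5 (shDnajb9), 60.8 and 100.88 (lacZ2), and 25.1 and 30.3 (shRictor). Rrm2, its small subunit in S phase, measured 35.5 and 35.1 CPM (lacZ1), 7.97 and 10.8 (shDnajb9), 23.1 and 28.9 (lacZ2), and 8.01 and 10.1 (shRictor). All hairpin libraries of both genes were below all controls. Rrm1 changed by -2.20 ± 0.287 (adjusted p = 0.000288) and -1.55 ± 0.277 (adjusted p = 0.00231), and Rrm2 by -1.89 ± 0.260 (adjusted p = 0.000396) and -1.52 ± 0.254 (adjusted p = 0.00146). Dut, which removes dUTP, measured 19.4 and 22.4 CPM (lacZ1), 13.8 and 12.7 (shDnajb9), 21.7 and 20.2 (lacZ2), and 10.1 and 8.41 (shRictor), without overlap in either experiment. Its change was -0.66 ± 0.237 (adjusted p = 0.0588) under shDnajb9, not called, and -1.18 ± 0.237 (adjusted p = 0.00463) under shRictor, a call lost without shRictor replicate 2 (0.0583). Tyms, the thymidylate synthase, measured 46.8 and 53.2 CPM (lacZ1), 28.1 and 30.4 (shDnajb9), 40.5 and 47.2 (lacZ2), and 33.6 and 32.2 (shRictor). It fell under shDnajb9, by -0.77 ± 0.222 (adjusted p = 0.0250), and its change of -0.42 ± 0.219 (adjusted p = 0.214) under shRictor was not called, although hairpin and control libraries did not overlap. The call of Tyms was lost without lacZ1 replicate 1, lacZ1 replicate 2 or shDnajb9 replicate 1 (0.0916, 0.13 and 0.113).

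Tk1, the thymidine kinase of the salvage pathway, was called in neither contrast. It measured 31.6 and 39.6 CPM (lacZ1), 43.4 and 38.02 (shDnajb9), 32.3 and 32.7 (lacZ2), and 37.3 and 31.01 (shRictor). The libraries overlapped in both experiments. Its changes were 0.19 ± 0.230 (adjusted p = 0.558) and 0.07 ± 0.229 (adjusted p = 0.869), with 95% intervals from -0.30 to 0.69 and from -0.42 to 0.57, so a fall of the size seen in Rrm1 or Rrm2 lay outside them. With total counts alone the 2 values were -0.23 and -0.33.

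The genes of chromatin behind the fork fell, 3 of 3 in both contrasts, with medians of -1.99 and -1.70. Uhrf1, which reads newly copied DNA for maintenance methylation, measured 40.2 and 33.4 CPM (lacZ1), 10.3 and 8.45 (shDnajb9), 29.3 and 36.7 (lacZ2), and 6.12 and 9.20 (shRictor). Chaf1a and Chaf1b encode the large and middle subunits of chromatin assembly factor 1, which places histones on new DNA. Chaf1a measured 29.2 and 21.9 CPM (lacZ1), 8.18 and 5.25 (shDnajb9), 24.4 and 20.3 (lacZ2), and 5.30 and 8.32 (shRictor). Chaf1b measured 14.1 and 20.6 CPM (lacZ1), 3.56 and 3.77 (shDnajb9), 13.03 and 18.4 (lacZ2), and 4.12 and 7.44 (shRictor). None of these 3 genes had a hairpin library within the range of its controls. The changes were -1.99 ± 0.275 (adjusted p = 0.000412) and -2.10 ± 0.272 (adjusted p = 0.000348) for Uhrf1, -1.97 ± 0.314 (adjusted p = 0.00108) and -1.70 ± 0.301 (adjusted p = 0.00209) for Chaf1a, and -2.23 ± 0.357 (adjusted p = 0.00111) and -1.43 ± 0.326 (adjusted p = 0.00902) for Chaf1b. Of the 50-base stretches of Chaf1a, 49.7% also occur in other genes, the largest number in Ubxn6 on the opposite strand. Chaf1b was not called under shRictor without lacZ2 replicate 2 or shRictor replicate 1 (0.0761 and 0.0966).

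Per kilobase of exon, Pcna led the 40 genes in all 4 groups, with 116, 80.8, 126 and 47.6 CPM per kilobase in lacZ1, shDnajb9, lacZ2 and shRictor. In the controls Mcm6 came second, at 28.04 and 26.99 CPM per kilobase, ahead of Mcm5 at 25.04 in lacZ1 and Tk1 at 22.6 in lacZ2. Under the hairpins Tk1, at 28.3 and 23.7, and Mcm10, at 23.7 and 22.2, took the places after Pcna, and Mcm6 stood at 7.25 and 7.14. Within each group the libraries of these neighbours in the order (Mcm6, Mcm5 and Tk1 in the controls, Tk1 and Mcm10 under the hairpins) overlapped, so their order was not resolved. At the other end, Cdc7 had 0.656, 0.247, 0.940 and 0.267 CPM per kilobase, close to Orc1 and Cdc6. Levels of the inhibitor Gmnn bear on Cdt1, which its product binds: per kilobase, Cdt1 stood at 1.88 and 1.36 times Gmnn (lacZ1), 0.217 and 0.478 times (shDnajb9), 1.44 and 1.33 times (lacZ2), and 1.10 and 0.902 times (shRictor). Gmnn itself measured 8.16 and 9.54 CPM (lacZ1), 7.34 and 6.62 (shDnajb9), 9.42 and 9.90 (lacZ2), and 5.77 and 5.77 (shRictor), with changes of -0.35 ± 0.265 (adjusted p = 0.347) and -0.74 ± 0.259 (adjusted p = 0.0636).

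Other genes of the replication fork and of origins, 37 in all, were called only as lower. Under shDnajb9 17 fell and 20 were not called, and under shRictor 18 fell and 19 were not called, with medians of -0.77 and -0.76. Over all tested genes, 12.6% fell under shDnajb9 and 10.9% under shRictor. Dnmt1, the maintenance DNA methyltransferase that Uhrf1 recruits, measured 172 and 140.2 CPM (lacZ1), 23.7 and 43.2 (shDnajb9), 124 and 154 (lacZ2), and 36.7 and 65.2 (shRictor). It changed by -2.21 ± 0.344 (adjusted p = 0.000967) and -1.45 ± 0.333 (adjusted p = 0.0101). Chtf18, a subunit of an alternative clamp loader, changed by -2.61 ± 0.422 (adjusted p = 0.00114) and -1.81 ± 0.404 (adjusted p = 0.00818), and Wdhd1, which links polymerase alpha to the helicase, by -2.11 ± 0.300 (adjusted p = 0.000504) and -1.99 ± 0.287 (adjusted p = 0.000601). Clspn, the checkpoint adaptor claspin, changed by -1.66 ± 0.309 (adjusted p = 0.00278) and -2.31 ± 0.313 (adjusted p = 0.000424). Asf1b, a histone chaperone, changed by -1.67 ± 0.317 (adjusted p = 0.00312) and -2.14 ± 0.315 (adjusted p = 0.000684). Dscc1, a partner of Chtf18, changed by -2.46 ± 0.671 (adjusted p = 0.0231) under shRictor and -1.55 ± 0.678 (adjusted p = 0.109), not called, under shDnajb9. Under shRictor the calls of Chtf18 and Dnmt1 were lost without shRictor replicate 1 (0.0726 and 0.11), that of Chtf18 also without lacZ2 replicate 1 (0.0914) and that of Dnmt1 without lacZ2 replicate 2 (0.058), and that of Dscc1 without any 1 of the 4 libraries of its experiment (between 0.0582 and 0.17).

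Of the 30 other genes of nucleotide synthesis, 4 fell and 3 rose under shDnajb9, about the shares of all tested genes (12.6% and 11.6%). Under shRictor 6 fell and 2 rose, beside 10.9% and 7.31% of all tested genes, and the medians were 0.01 and -0.07. Ctps, a CTP synthase, measured 34.4 and 41.4 CPM (lacZ1), 8.18 and 8.22 (shDnajb9), 35.5 and 42.4 (lacZ2), and 7.65 and 11.4 (shRictor). It lay apart from its controls and fell, by -2.20 ± 0.270 (adjusted p = 0.000198) and -2.02 ± 0.260 (adjusted p = 0.000334). Shmt1, the cytosolic serine hydroxymethyltransferase that makes the folate cofactor of Tyms, measured 72.7 and 88.2 CPM (lacZ1), 159 and 177 (shDnajb9), 46.3 and 81.7 (lacZ2), and 149 and 157 (shRictor). All its hairpin libraries were above all controls, and it rose, by 1.06 ± 0.287 (adjusted p = 0.0189) and 1.26 ± 0.288 (adjusted p = 0.00942). Mthfd1, another enzyme of the folate cycle, measured 155 and 171 CPM (lacZ1), 332 and 273 (shDnajb9), 97.6 and 156 (lacZ2), and 237 and 341 (shRictor), and rose under shRictor, by 1.19 ± 0.316 (adjusted p = 0.0202), while its 0.89 ± 0.314 (adjusted p = 0.0548) under shDnajb9 was not called. Cad, which starts pyrimidine synthesis, changed by -1.53 ± 0.446 (adjusted p = 0.0268) and -0.24 ± 0.427 (adjusted p = 0.752), and Ctps2, the second CTP synthase, by -0.44 ± 0.232 (adjusted p = 0.174) and -1.08 ± 0.235 (adjusted p = 0.00735). Dctd, the dCMP deaminase, was near the limit of detection and changed by -2.61 ± 0.715 (adjusted p = 0.0200) and -2.20 ± 0.631 (adjusted p = 0.0292). The nucleoside diphosphate kinases Nme1 and Nme2 rose under shDnajb9, by 0.91 ± 0.272 (adjusted p = 0.0293) and 1.54 ± 0.382 (adjusted p = 0.0131). Under shRictor they changed by -0.32 ± 0.271 (adjusted p = 0.459) and 0.00 ± 0.374 (adjusted p = 0.999). Of the 50-base stretches of Nme2, 47% also occur in other genes, the largest number in Gm20390.

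Among these calls, the rise of Shmt1 was lost without lacZ1 replicate 1 or lacZ1 replicate 2 (adjusted p = 0.193 and 0.0584), with total counts alone (0.0874) and, under shRictor, without lacZ2 replicate 1 (0.0969). That of Mthfd1 was lost without lacZ2 replicate 1 or shRictor replicate 2 (0.152 and 0.162). Cad, Nme1 and Nme2 were not called under shDnajb9 without lacZ1 replicate 1 (0.301, 0.267 and 0.142) or without shDnajb9 replicate 1 (0.197, 0.235 and 0.125), nor Nme1 without lacZ1 replicate 2 (0.0529) or with total counts alone (0.175). Ctps2 was not called without lacZ2 replicate 2 or shRictor replicate 1 (0.0578 and 0.0671). Dctd was not called under shDnajb9 without lacZ1 replicate 1, shDnajb9 replicate 1 or shDnajb9 replicate 2 (0.128, 0.108 and 0.063), nor under shRictor without lacZ2 replicate 1, lacZ2 replicate 2 or shRictor replicate 1 (0.0678, 0.123 and 0.206).

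The 2 hairpins were compared through the difference of their changes, each against its own control. No replication gene differed at an adjusted p under 0.05 in edgeR, against 0.00726% of all tested genes, 2 did at an unadjusted p under 0.05, and 0 were called by DESeq2 or by limma-voom. The shDnajb9 change was the lower one in 21 genes and the shRictor change in 19, with a median difference of 0.05. The 95% interval of the difference covered 0 in 38 of 40 genes, but its median width was 1.68 on the log2 scale, so smaller differences between the hairpins could not be resolved. The exceptions were Cdt1, with the lower change under shDnajb9 (difference 1.29, interval from 0.40 to 2.17, adjusted p = 0.407), and Pcna, with the lower change under shRictor (difference -0.89, interval from -1.74 to -0.03, adjusted p = 0.451). Across the 40 genes, which are not independent of each other, the changes in the 2 contrasts had a Pearson r of 0.833 and a Spearman rho of 0.750, and a Pearson r of 0.787 without Mcm10. The contrasts share no library, but they share the scaling, the fitted spread and the tissue, and the ages of the mice differ between them.

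**Figure D4:**
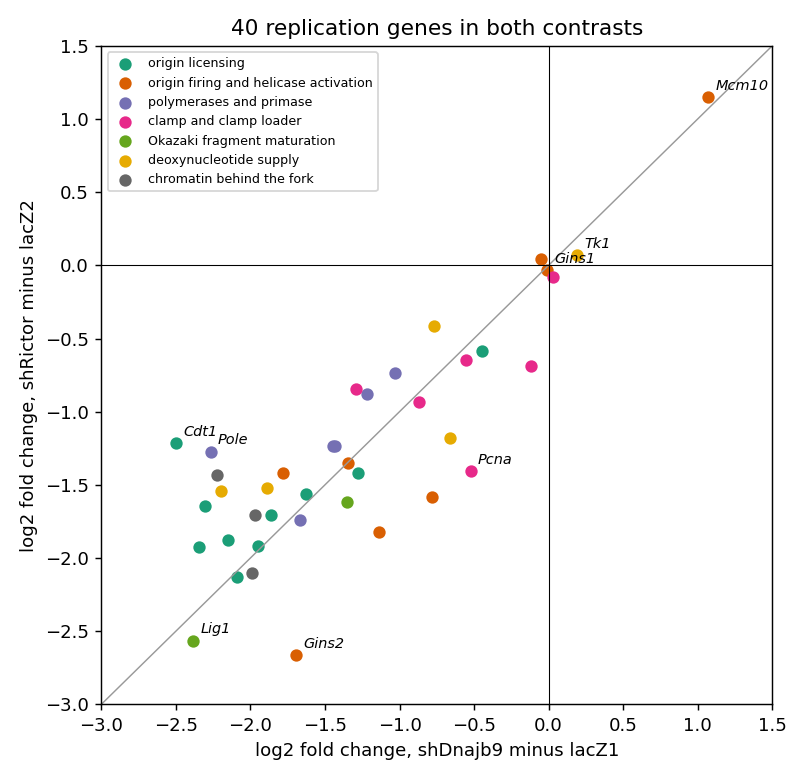
Log2 fold change under shRictor minus lacZ2 (vertical axis) against that under shDnajb9 minus lacZ1 (horizontal axis) for the 40 genes, coloured by role, with a grey line of equal change. Points follow the line with an r of 0.833, Mcm10 stands alone at the upper right, and Cdt1, Pole, Gins2 and Pcna lie farthest from the line.

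Between the control groups lacZ2 and lacZ1, which differ in age, no replication gene was called by edgeR, against 0.0% of all tested genes, 0 had an unadjusted p under 0.05, and 0 were called by DESeq2 or limma-voom. The median log2 difference, lacZ2 minus lacZ1, was -0.14, beside -0.01 over all genes, and single genes ran from -0.44 to 0.51. Control libraries of the 2 ages overlapped in 34 of the 40 genes, as they did in 78.3% of all tested genes.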

How the data were processed

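Liver RNA of 8 libraries in 4 groups of 2 was analysed from 1 table of counts per gene symbol and library, deposited by the authors. Per the submitters' processing notes, cutadapt, HTSeq and the build mm10 were used; the aligner, versions, gene annotation and strand setting are not given in the sources used here. The 5 HTSeq classes of unassigned reads were kept out of library sizes, among them reads aligned to more than 1 place (22.9% to 41.97%). Of the 24062 entries, 27 carried a date in place of a symbol.

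The counts were fitted with edgeR 4.0.16 in R 4.3.3: filterByExpr (minimum count 10), TMM scaling, 4 group means fitted to all 8 libraries with robust moderation, and the quasi-likelihood F test with Benjamini-Hochberg adjustment over 13767 genes. The common biological coefficient of variation was 0.209, with 4 residual and 9.07 median prior degrees of freedom. The 2 libraries of each group differed beyond sampling noise (chi-square per degree of freedom 19.4 to 55.4). Alternatives included limma 3.58.1 (voom) and DESeq2 1.42.0. Exon lengths, overlaps and shared 50-base stretches came from GENCODE M21, with 20% shared or more named as uncertain, and promoters from RefSeq (GRCm38.p6).

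The 40 genes, the lists of other genes and markers and the rule for named genes were chosen with earlier results of these data known. That rule gives full values to the 3 largest changes per role, genes called in neither contrast or against their role, and the 3 highest levels, and names the 3 largest called changes in each direction among the other pathway genes. Values beyond it (Mcm5, Cdc6, Gins3, Tyms, Gmnn, Dnmt1, Ctps, Shmt1 and Mthfd1) were given after they were seen.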

Additional observations from a re-analysis of the deposited data

How the results depend on the processing

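Over 19 alternatives, 18 of the 29 genes called under shDnajb9 and 15 of the 30 called under shRictor were called in every one, and no called replication gene changed its direction. The genes called numbered 21 to 29 when 1 library was left out under shDnajb9 and 19 to 32 under shRictor, where the lowest, 19, came without shRictor replicate 1, and the medians ran from -1.58 to -1.37 and from -1.52 to -1.22. Such a fit leaves 1 library in an arm, whose spread is taken from the remaining groups. The upper ends, 29 and 32, came only from fits without a library of the other experiment. Without any 1 of the 4 libraries of the contrast itself, calls were lost in both contrasts. Under shRictor the loss was of similar size for each of these 4, so shRictor replicate 1 was not a single low case. DESeq2 called 28 and 28, limma-voom 29 and 30, and a test against a 1.5-fold change 22 and 20. With total counts alone the medians were -1.81 and -1.82. The replicate numbers pair no samples that the labels tie together, and the deviations of libraries with the same number correlated at -0.300 (lacZ1 and shDnajb9) and -0.0321 (lacZ2 and shRictor). With the replicate number as a block, 29 and 29 genes were called, and the calls of Pola2 under shRictor (adjusted p = 0.0506) and Cad under shDnajb9 (0.0647) were lost.

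Directions that changed were all of genes not called in that contrast. With 1 library left out, Gins1 ran from -0.20 (without lacZ1 replicate 1) to 0.16 (without lacZ1 replicate 2) under shDnajb9, Gins4 from -0.43 to 0.38 without the same libraries, Rfc1 from -0.062 to 0.11 and Rfc2 from -0.39 to 0.13. Under shRictor, such fits gave Gins1 from -0.18 to 0.11, Gins4 from -0.24 to 0.43, Rfc1 from -0.29 to 0.18, Tk1 from -0.061 to 0.20, Cad from -0.78 to 0.15 and Nme2 from -0.25 to 0.32. Gins4 was also -0.24 under shRictor without both lacZ2 replicate 1 and shDnajb9 replicate 1. Gins1 under shDnajb9 was 0.012 with RLE size factors, 0.0086 with limma-voom and 0.012 with DESeq2. With total counts alone, Rfc1 was -0.39 and Tk1 -0.23 under shDnajb9, and Gins4 was -0.34, Tk1 -0.33 and Nme2 -0.42 under shRictor. Nme2 under shRictor was -0.0050 with a filter of 2 CPM and -0.0023 in a fit to the 4 libraries compared. Apart from the scaling and the number of libraries, the cause was not tested. At 2 libraries per group the median standard error was 0.282 under shDnajb9 and 0.274 under shRictor, which limits what can be called.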
